A study of Bos taurus with 6 samples.

Results

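Solute carriers (SLC genes) encode the membrane proteins that move amino acids, sugars, ions, metals, vitamins and nucleotides across the plasma membrane and the membranes of organelles. Members were taken by symbol, as every gene whose single annotated symbol has the SLC family pattern, with SLC6A4 and SLC25A20 left out. This gave 91 of the 6337 genes with a single symbol on the array, from 30 SLC families. The SLC25 family of mitochondrial carriers (18 genes) was kept apart from the other SLC genes (73). SLC4A1AP and SLC7A6OS match the pattern by name but encode no transporter, and SLC25A17 sits in peroxisomes although it is an SLC25 gene. The 91 genes were covered by 113 probe sets, and each gene was read from the one with the highest mean.

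RNA of white blood cells from Sanhe heifers, female cattle of a Chinese dual-purpose breed, was measured on an Affymetrix bovine array. A group of 3 arrays (numbered 1, 2 and 3) came from blood drawn after cold, which meant 3 hours outdoors at -32 °C and then 15 hours in a cowshed at 5 °C, and a group of 3 (numbered 4, 5 and 6) from blood drawn before it. All animals shared a cowshed and a ration, and the labels name no other treatment. The 6 samples came from 3 animals out of 30, each sampled at both times, but the labels name no animal for a sample, so p-values take the arrays as separate. The hour at which the later blood was drawn is not given in the sources used here.

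White blood cells depend on SLC genes when they are activated. Amino acid carriers feed mTOR signalling and protein synthesis, glucose and lactate carriers serve glycolysis, and zinc and iron carriers set the metal supply of the cell and of the phagosome. The SLC35 family includes carriers that bring nucleotide sugars into the Golgi, where glycans of the cell surface are built. SLC25 carriers join the cytosol to the mitochondrial matrix, exchanging ADP for ATP and passing phosphate, carboxylates, amino acids and cofactors.

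None of the SLC genes differed between the groups by the test used. With limma over all 12763 probe sets and Benjamini-Hochberg adjustment, 0 of 91 had an adjusted p under 0.05 (0.0% of all probe sets did). At an unadjusted p under 0.05 there were also 0 of 91, against 0.494% of all probe sets. The smallest unadjusted p of a member, 0.065, belonged to the zinc carrier gene SLC30A6. The 95% interval of the change included 0 for all 91 genes, and for 57 of them it lay within a 2-fold change in either direction while for the other 34 it reached beyond that. A count of 0 does not show that no SLC gene changed.

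Values are log2 intensities, so a difference of 1 is 2-fold, and changes are after minus before. A higher mean after cold was seen in 63 of the 91 SLC genes, against 56.3% of all genes read in the same way and 52.4% of all probe sets. Their median change was 0.11, with 0.05 over all genes and 0.02 over all probe sets. SLC25 genes were higher in 13 of 18, with a median of 0.10, and the other SLC genes in 50 of 73, with a median of 0.11. These counts turned on single arrays. Without the after 3 array, 47 members had a higher and 44 a lower mean, with a median of 0.01. Without the before 6 array, 48 were higher and 43 lower, with a median of 0.02. The median moved the other way without after 2, to 0.23 with 59 higher, and without before 5, to 0.18 with 58 higher. Of the 63 genes with a higher mean, 25 turned sign and 20 shrank by over 1.5 times without after 3, and 41 grew by over 1.5 times without after 2. Of the 28 with a lower mean, 9 turned sign and 10 shrank without after 3, and 19 grew without after 2.

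Changes were small beside their errors. They ran from -0.91 to 0.39, the median standard error (SE) was 0.33, and the change was larger than its own SE in 12 of 91 genes. Over all genes this held for 1451 of 6337, and over all probe sets for 2902 of 12763. A difference of at least 1.5-fold was seen in 2 genes, both lower after cold (6.81% of all probe sets were lower by that much), and in 0 genes in the other direction (0.227% of all probe sets).

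**Figure D1:**
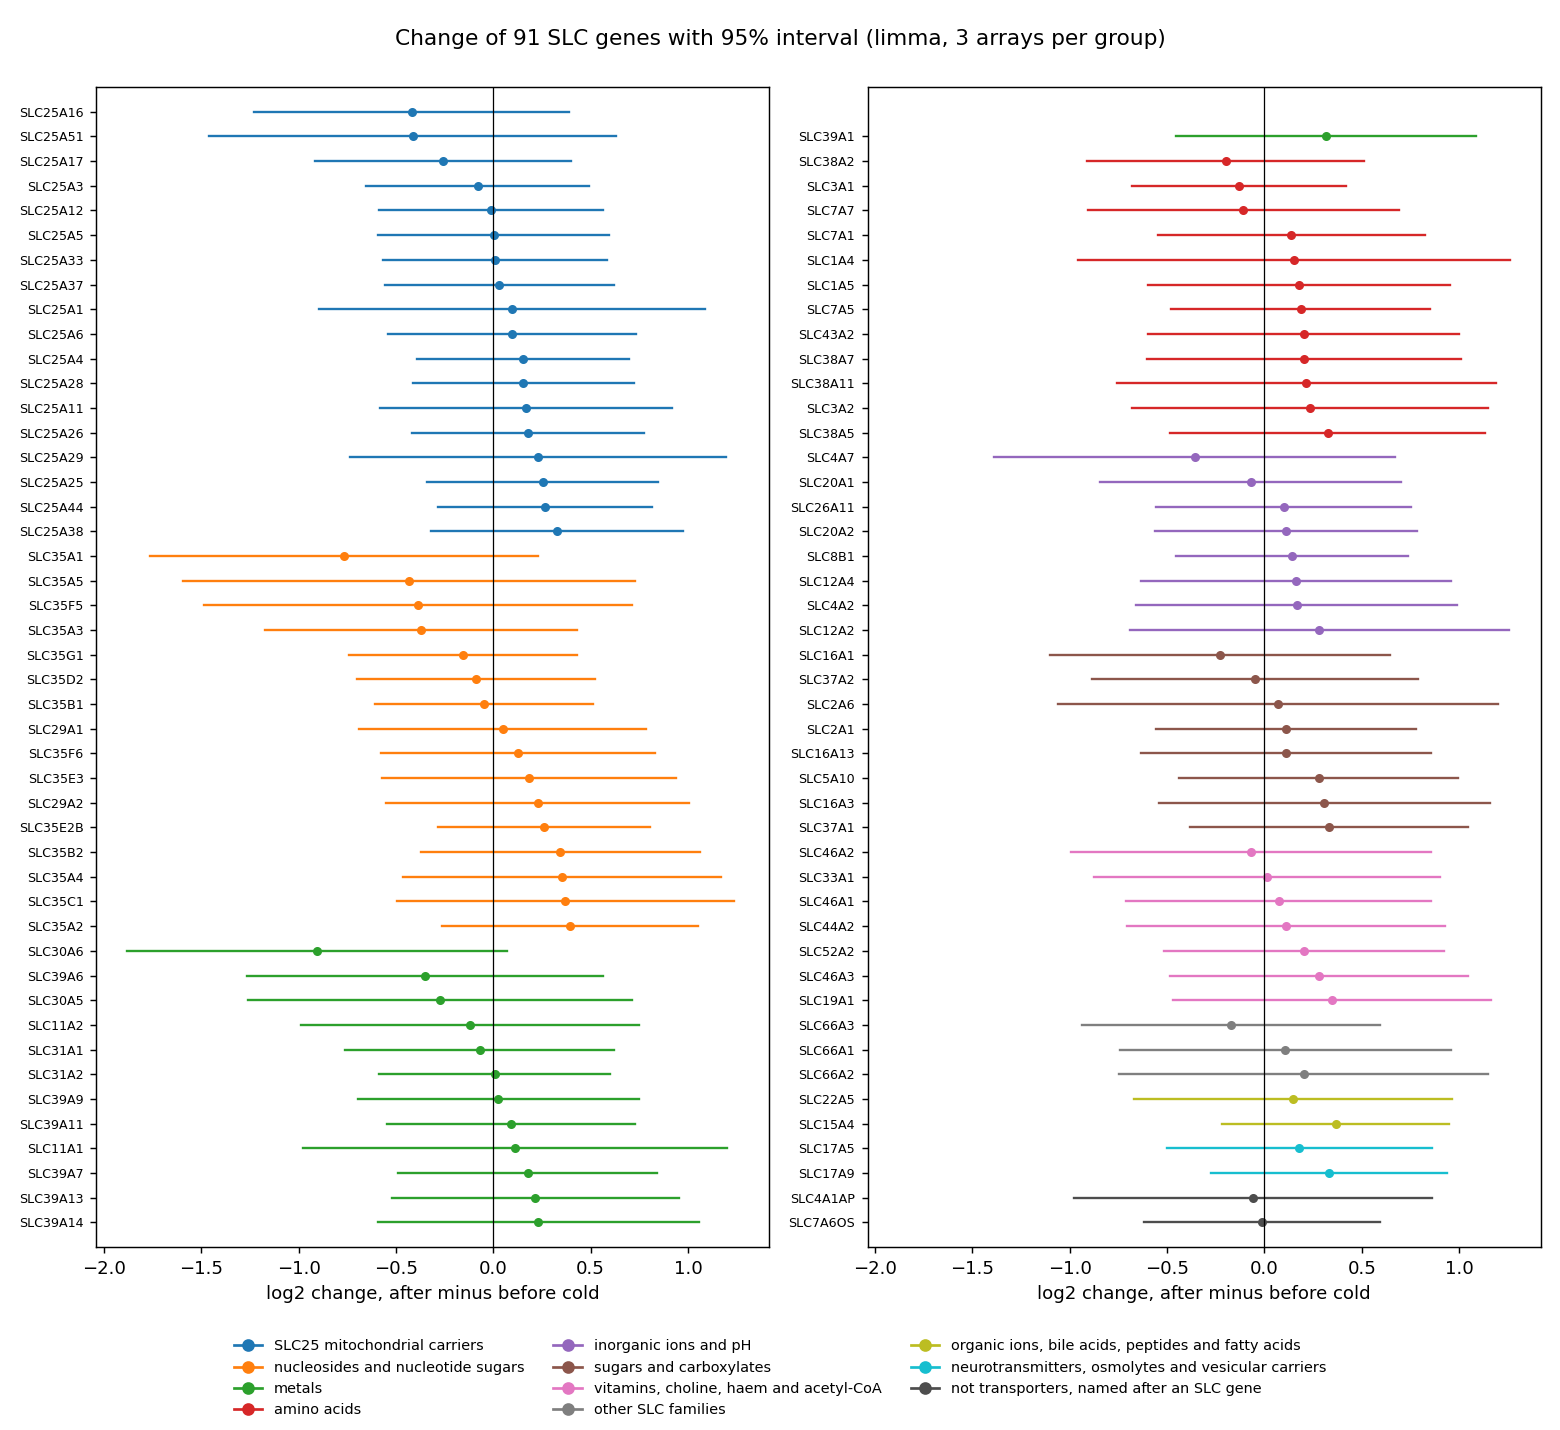
Log2 change after minus before cold of the 91 SLC genes (points) with the 95% interval of the limma fit (lines), coloured by role group. Every interval crosses 0, and SLC30A6 and SLC35A1 lie farthest below it, at -0.91 and -0.77.

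In 3 SLC genes all after values lay above all before values, and in 0 all lay below; over all probe sets the shares were 2.07% and 2.31%. SLC15A4, a lysosomal carrier of histidine and small peptides that immune cells need for signalling from endosomal Toll-like receptors, was at 9.01, 8.84 and 9.29 after cold. Before cold it was at 8.74, 8.78 and 8.52. The change was 0.37 ± 0.25 (SE), with an adjusted p of 1.00 in limma. SLC35E2B, an SLC35 family member, was at 8.59, 8.81 and 8.72 after and 8.50, 8.35 and 8.48 before, a change of 0.26 ± 0.24. SLC25A44, the mitochondrial carrier of branched-chain amino acids known for its part in heat production by brown fat, was at 6.79, 7.02 and 6.96 after and 6.69, 6.56 and 6.74 before. Its change was 0.26 ± 0.24. The gaps between the groups were narrow in all 3 genes, and the lowest after value was 0.05 to 0.08 above the highest before value.

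**Figure D2:**
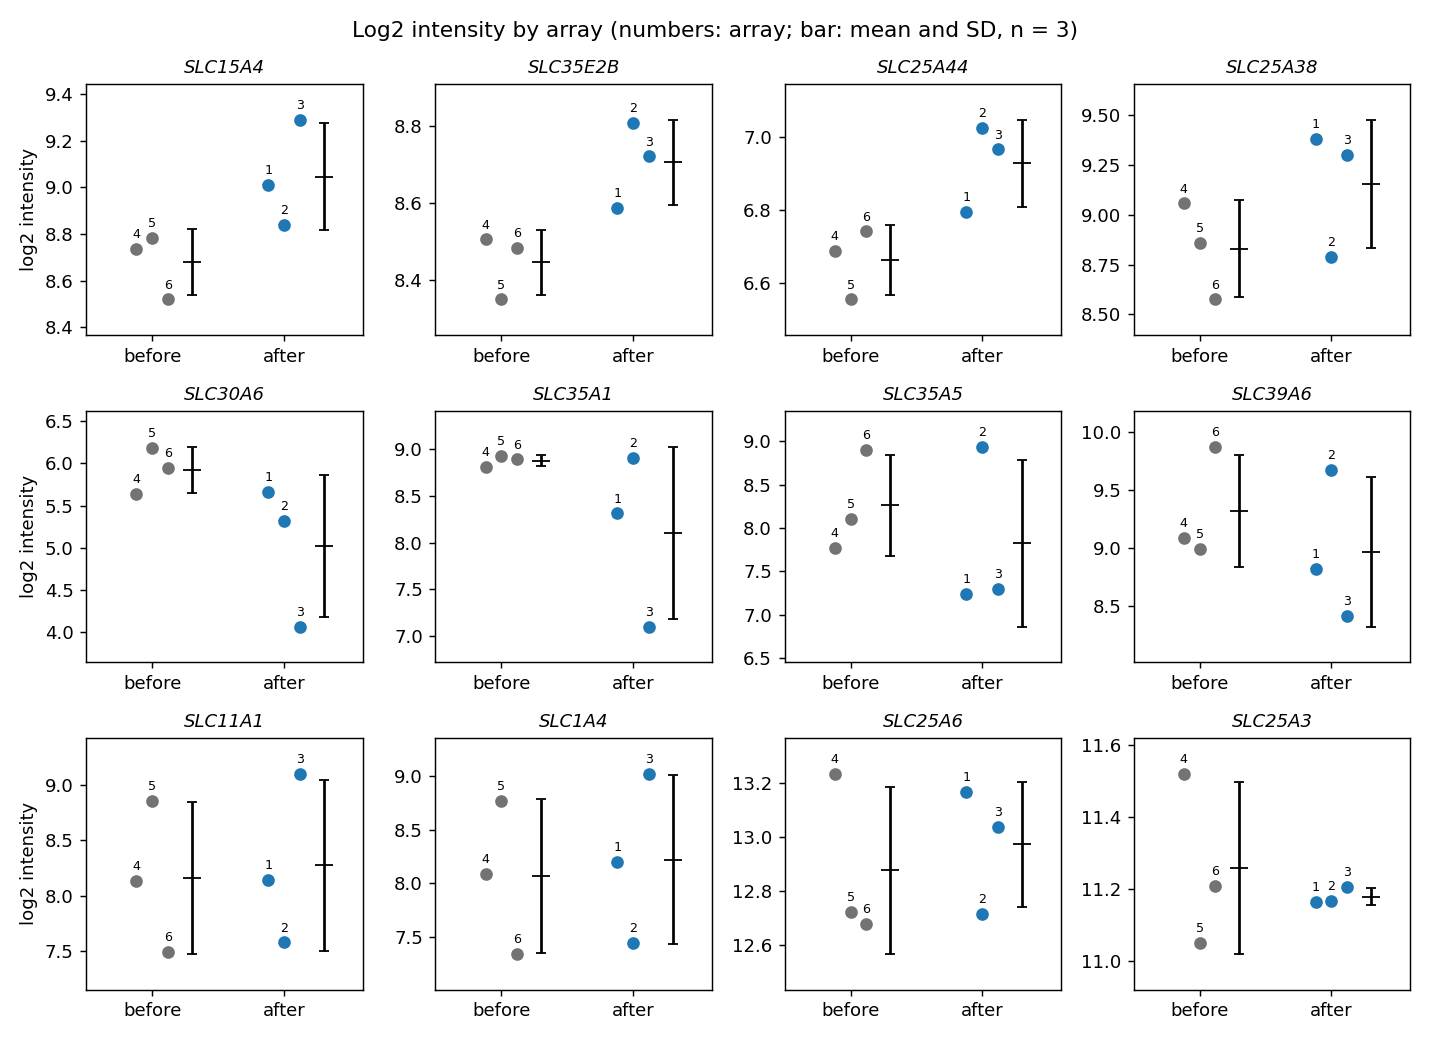
Log2 intensity of 12 SLC genes on each array (numbers) before and after cold, with the mean and SD of the 3 arrays beside the points. In SLC15A4, SLC35E2B and SLC25A44 the groups do not overlap, while in SLC11A1 and SLC1A4 the after 3 and before 5 arrays are high and the after 2 and before 6 arrays low.

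Among the mitochondrial carriers, the genes of ADP/ATP exchange and phosphate import, which supply the ATP synthase, had small differences between the group means. SLC25A6, an ADP/ATP carrier, was at 13.17, 12.72 and 13.04 after and 13.24, 12.72 and 12.68 before cold. SLC25A5 differed by 0.0036 ± 0.26 (SE) and SLC25A4, the isoform typical of muscle and heart, by 0.15 ± 0.24. The 3 are close paralogues, and whether their probe sets tell them apart was not tested. The phosphate carrier SLC25A3 was at 11.16, 11.17 and 11.20 after and 11.52, 11.05 and 11.21 before, so the before arrays spread around the after arrays. SLC25A25, a carrier of ATP-Mg and phosphate, differed by 0.25 ± 0.26. In all 4 measured adenine nucleotide carriers the after mean was the higher one, with a median change of 0.12, and their changes were below their SE.

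The carboxylate carriers followed single arrays more than the groups. SLC25A1, which exports citrate for lipid synthesis, was at 8.91, 7.89 and 9.18 after and 8.84, 8.97 and 7.88 before cold. The oxoglutarate and malate carrier SLC25A11 was at 8.32, 7.59 and 8.34 after and 8.20, 8.06 and 7.47 before. In both genes the after 2 and before 6 arrays were the lowest of the 6. The other arrays overlapped between the groups in SLC25A1, while in SLC25A11 the other after values lay above the other before values. The change was 0.10 ± 0.43 (SE) for SLC25A1 and 0.17 ± 0.33 for SLC25A11.

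Of the amino acid carriers of mitochondria, SLC25A38, which brings in glycine for haem synthesis, had the largest positive change of the SLC25 genes. It was at 9.38, 8.79 and 9.30 after and 9.06, 8.86 and 8.58 before cold, a change of 0.33 ± 0.28 (SE). The after 2 value lay below 2 of the 3 before values, so the groups overlapped. SLC25A29, a carrier of basic amino acids, was at 7.27, 6.62 and 8.02 after and 7.01, 7.62 and 6.59 before, and its change of 0.23 ± 0.42 became -0.13 without the after 3 array. SLC25A12, a carrier of the malate-aspartate shuttle, differed by -0.01 ± 0.25, and its dimmer probe sets by -0.17 ± 0.27 and -0.48 ± 0.34.

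Carriers of iron and cofactors were split, with 3 of 5 higher. The mitoferrin genes, which import iron, differed by 0.03 ± 0.26 (SE) for SLC25A37 and 0.15 ± 0.25 for SLC25A28, and the S-adenosylmethionine carrier SLC25A26 by 0.18 ± 0.26. SLC25A16 had the lowest change of the SLC25 genes, -0.42 ± 0.35, with 8.07, 8.43 and 7.16 after and 8.26, 8.27 and 8.38 before. The peroxisomal SLC25A17 differed by -0.26 ± 0.29. SLC25A51, which brings NAD into mitochondria, was at 6.35, 7.49 and 5.59 after and 6.81, 6.75 and 7.11 before. The after 3 array was the lowest in SLC25A16, SLC25A17 and SLC25A51 alike. Without it the changes of SLC25A16 and SLC25A17 were -0.05 and -0.07, and that of SLC25A51 was 0.03. Without after 2, SLC25A16 was at -0.69 and SLC25A51 at -0.92.

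The largest differences of all SLC genes were in carriers of the secretory pathway, and they moved with single arrays. SLC30A6, a subunit of a zinc transporter of the Golgi, was at 5.67, 5.32 and 4.06 after and 5.64, 6.19 and 5.95 before cold. Its change was -0.91 ± 0.42 (SE), with an adjusted p of 1.00 in limma, and -0.43 without after 3. The probe set of SLC30A6 was among the dimmest 25% of all probe sets. SLC30A5, its partner subunit, was at 8.12, 8.88 and 7.31 after and 8.22, 8.04 and 8.88 before, a change of -0.27 ± 0.43 that became 0.12 without after 3 and -0.66 without after 2. SLC35A1, which carries CMP-sialic acid into the Golgi, was at 8.31, 8.90 and 7.11 after and 8.81, 8.92 and 8.89 before, so the before arrays lay within 0.11 of each other and the after arrays within 1.80. Its change was -0.77 ± 0.44, -0.27 without after 3 and -1.16 without after 2.

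The SLC35 genes did not run one way, with 7 of 14 members higher and a median of 0.04. Lower means were seen in SLC35A3, a carrier of UDP-N-acetylglucosamine, at -0.37 ± 0.35 (SE), and in SLC35A5 and SLC35F5, at -0.43 ± 0.51 and -0.39 ± 0.48. SLC35A5 was at 7.24, 8.93 and 7.30 after and 7.77, 8.11 and 8.90 before, with the after 2 and before 6 arrays almost equal and far above after 1 and after 3. The UDP-galactose carrier SLC35A2 had the largest positive change of all 91 genes, 0.39 ± 0.29, with 7.84, 7.50 and 8.24 after and 7.57, 7.59 and 7.24 before. The GDP-fucose carrier SLC35C1, which leukocytes need to make selectin ligands, differed by 0.37 ± 0.38, and SLC35B2, which carries the sulphate donor PAPS, by 0.35 ± 0.31. Without after 3 their changes were 0.11 and 0.10, and that of SLC35A2 was 0.20. The nucleoside carriers of the plasma membrane, SLC29A1 and SLC29A2, differed by 0.05 ± 0.32 and 0.23 ± 0.34.

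Of the 13 metal carriers 8 had a higher mean, with a median of 0.03. SLC11A1, the iron and manganese pump of the phagosome membrane of macrophages and neutrophils, was at 8.14, 7.58 and 9.10 after and 8.13, 8.86 and 7.49 before cold. It differed between arrays of a group by up to 1.52 and between the group means by 0.11 ± 0.47 (SE). SLC11A2, which imports iron in other cells, differed by -0.12 ± 0.38. The zinc importer genes of SLC39 were higher in 6 of 7, among them SLC39A1 at 0.31 ± 0.34, while SLC39A6 was at -0.35 ± 0.40. The copper carriers SLC31A1 and SLC31A2 differed by -0.07 ± 0.30 and 0.01 ± 0.26.

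Amino acid carriers of the plasma membrane and lysosome were higher on average after cold in 9 of 12 genes, with a median of 0.18. The heavy chain SLC3A2 (CD98) was at 8.16, 7.24 and 8.52 after and 7.98, 8.03 and 7.21 before cold. Its light chain partner SLC7A5, which imports leucine, was at 8.04, 8.03 and 8.58 after and 7.84, 8.38 and 7.87 before. They differed by 0.23 ± 0.40 (SE) and 0.19 ± 0.29, both below their SE. The glutamine carriers SLC1A5 and SLC38A5 differed by 0.18 ± 0.34 and 0.32 ± 0.35, and SLC38A2, which cells induce when amino acids run short, by -0.20 ± 0.31. The neutral amino acid carrier SLC1A4 was at 8.20, 7.45 and 9.02 after and 8.09, 8.77 and 7.35 before. In 8 of the 12 genes the after 2 and before 6 arrays were the lowest pair, and in 8 the after 3 array was the highest.

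Carriers of sugars and carboxylates had a higher mean in 6 of 8 genes, with a median of 0.11. The glucose carrier SLC2A1 was at 7.06, 6.33 and 6.99 after and 6.87, 6.66 and 6.51 before cold, a change of 0.11 ± 0.29 (SE). SLC16A3, the lactate exporter of glycolytic cells, was at 9.01, 8.25 and 9.46 after and 8.66, 8.94 and 8.19 before, a change of 0.31 ± 0.37. That change was 0.03 without after 3 and 0.64 without after 2. SLC16A1, which moves lactate in both directions, differed by -0.23 ± 0.38. The glucose-6-phosphate carrier SLC37A1 differed by 0.33 ± 0.31 (0.10 without after 3), and its relative SLC37A2 by -0.05 ± 0.37.

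Ion carriers had a higher mean in 6 of 8 genes, with a median of 0.13. The sodium-bicarbonate carrier SLC4A7 was at 9.59, 10.50 and 9.02 after and 9.88, 9.59 and 10.73 before cold, a change of -0.36 ± 0.45 (SE). The sodium-potassium-chloride carrier SLC12A2 was at 5.80, 7.03 and 5.73 after and 5.39, 5.96 and 6.37 before, and its change of 0.28 ± 0.42 became -0.14 without the after 2 array. SLC8B1, the sodium-calcium exchanger of mitochondria outside the SLC25 family, differed by 0.14 ± 0.26.

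Vitamin and cofactor carriers had a higher mean in 6 of 7 genes, with a median of 0.11. The folate carrier SLC19A1 was at 7.22, 6.64 and 7.71 after and 6.86, 7.24 and 6.43 before cold, a change of 0.35 ± 0.36 (SE) that was 0.088 without after 3. The riboflavin carrier SLC52A2 differed by 0.20 ± 0.31, and SLC44A2, a choline transporter-like protein of granulocytes, by 0.11 ± 0.36. The after 3 array was the highest in 6 of the 7. Of the remaining genes, SLC17A9, which loads ATP into vesicles, differed by 0.33 ± 0.26, the sialic acid exporter of lysosomes SLC17A5 by 0.18 ± 0.30, and the carnitine carrier SLC22A5 by 0.15 ± 0.36. In SLC66, a family of organelle membrane proteins, SLC66A2 differed by 0.20 ± 0.41 and SLC66A3 by -0.17 ± 0.33. SLC4A1AP and SLC7A6OS, the genes with no transporter product, differed by -0.06 ± 0.40 and -0.01 ± 0.26.

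SLC genes differed more between some arrays of a group than between the groups. The after 2 and after 3 arrays, both taken after cold, differed by a median of 0.86 over the 91 genes, and 31 of them differed by over 2-fold. The after 2 and before 6 arrays, from opposite groups, differed by a median of 0.15, with 0 genes over 2-fold, and the after 1 and before 4 arrays by 0.17, also with 0. The after 3 and before 6 arrays lay farthest apart, with a median of 0.89 and 34 genes over 2-fold. The same holds for all probe sets, where after 2 and before 6 correlated at 0.995 and after 2 and after 3 at 0.874.

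**Figure D3:**
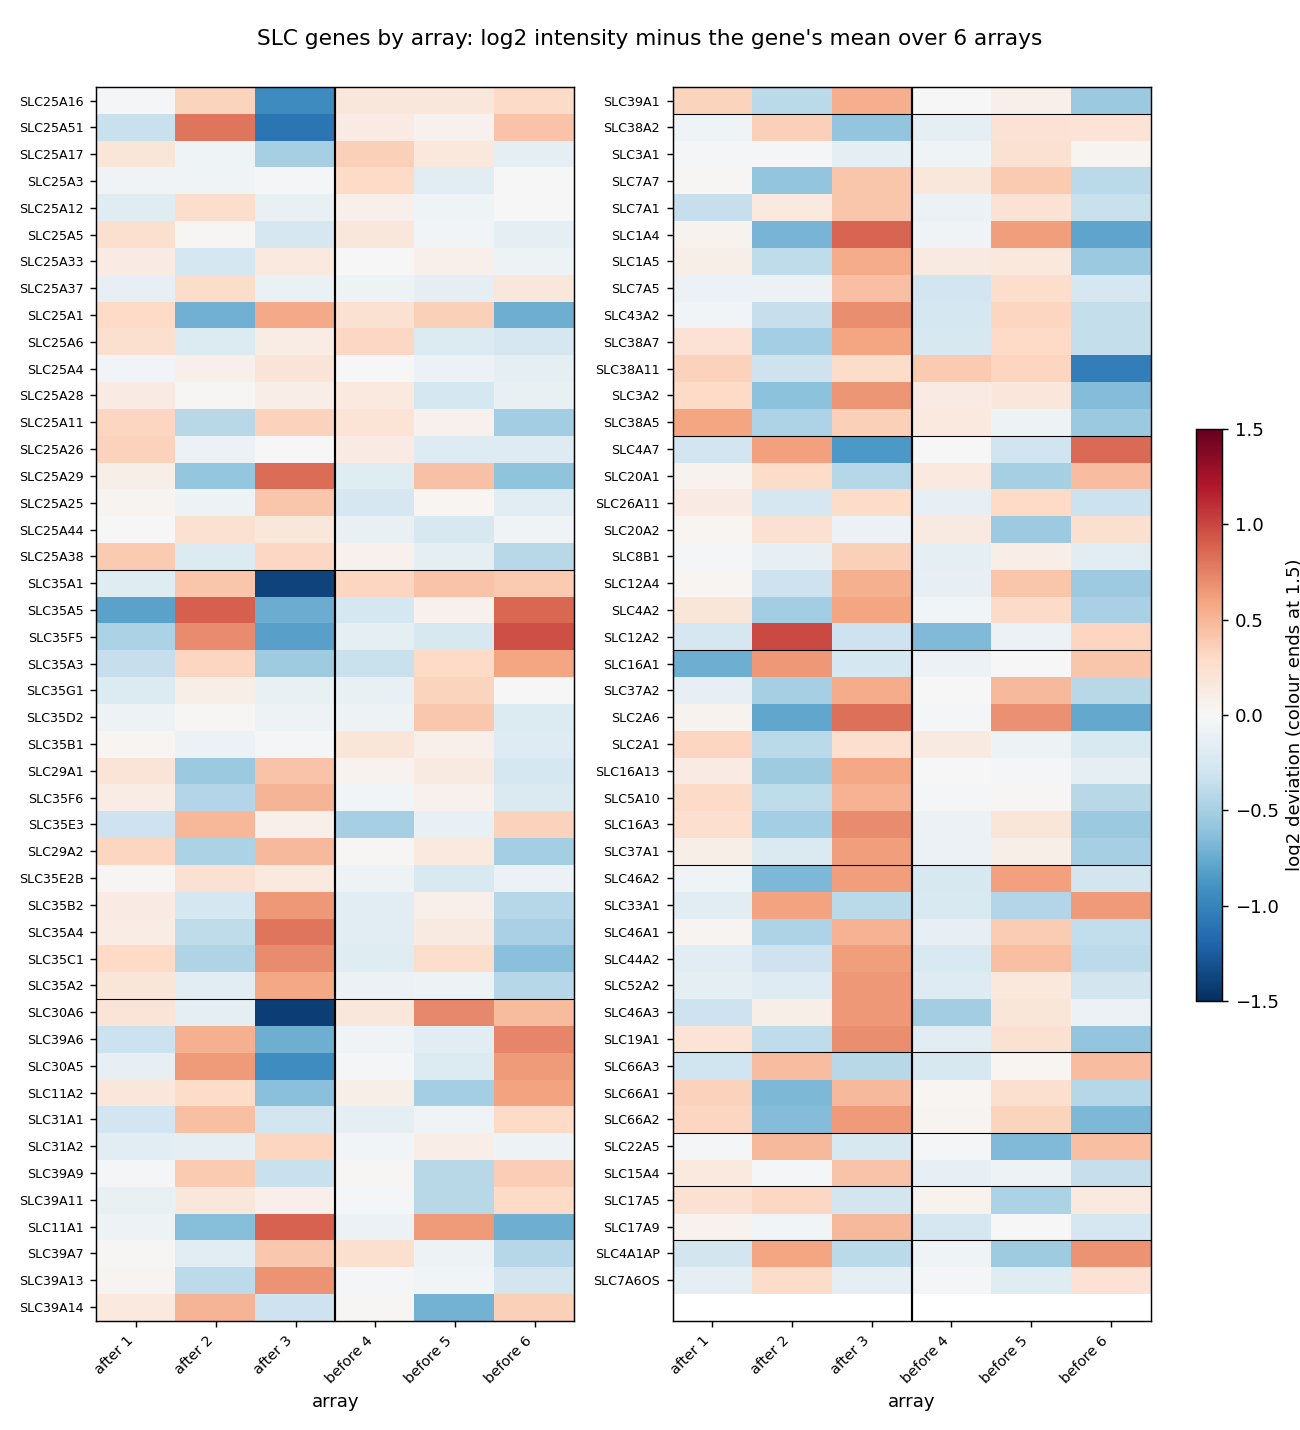
Log2 intensity of each of the 91 SLC genes minus its mean over the 6 arrays, for the after arrays (left of the thick line) and the before arrays (right), with thin lines between role groups. Most amino acid, sugar and vitamin carriers are red on after 3 and blue on after 2 and before 6, while SLC30A5, SLC35A5, SLC35F5, SLC39A6 and SLC4A7 show the opposite colours.

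The SLC genes were split along this difference between arrays. The after 2 and before 6 arrays were the lowest pair in 43 of 91 genes, or 47.3%, and the highest pair in 24, or 26.4%. Over all genes the shares were 36.9% and 25.5%. The after 3 array was the highest in 45 of 91 SLC genes and the lowest in 15, and over all genes in 36.4% and 32.5%. No test was made of these shares. The lowest-pair count was 6 of 18 for the mitochondrial carriers and 37 of 73 for the other SLC genes, a difference that was not tested. The median range of SLC25 genes over the 6 arrays was 0.55, against 1.07 for the other SLC genes and 0.98 for all genes.

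**Figure D4:**
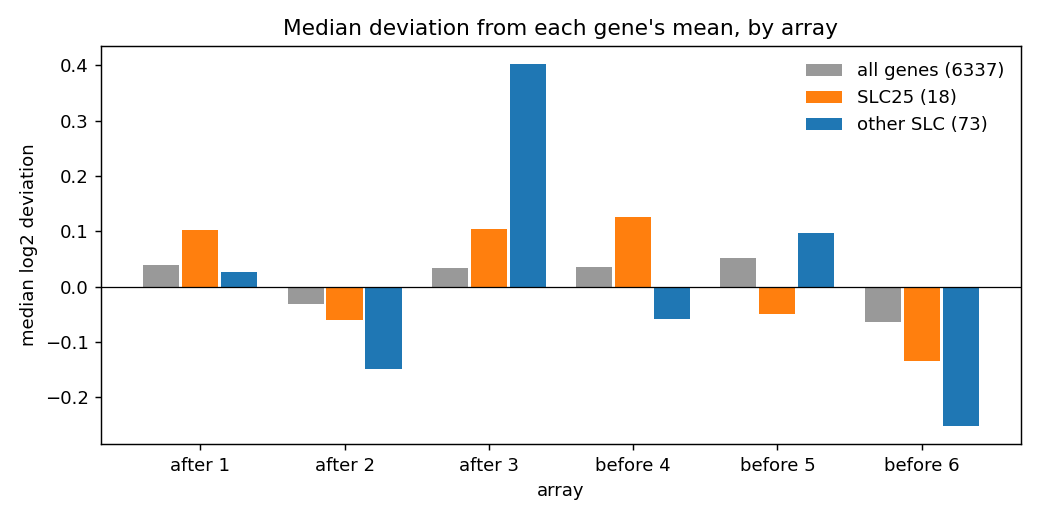
Median over genes of the log2 deviation from each gene's mean, by array, for all genes, SLC25 genes and other SLC genes. The other SLC genes stand at 0.40 on after 3 and at -0.25 on before 6, where all genes stand at 0.03 and -0.06.

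Blood cell markers also differed between arrays. All 4 general white cell markers were measured (PTPRC, CD53, LAPTM5 and CORO1A). On the linear scale, not log2, the lowest intensity of any probe set was 3.91 to 4.63 on the 6 arrays. The absence of a marker therefore cannot be read from its value. The sums of markers are on the linear scale too. The summed intensity of the 4 measured of 7 neutrophil markers ran from 18834 to 24884 after and from 16382 to 24857 before cold, and that of the 4 measured of 6 monocyte markers from 976 to 1791 and from 934 to 1876. Both sums were highest on the after 3 and before 5 arrays, where SLC11A1, SLC1A4, SLC44A2, SLC2A6 and SLC46A2 were also highest. Other SLC genes were highest there too, among them SLC25A1, SLC25A29 and SLC7A5. The monocyte sum was lowest on before 6, as were SLC11A1 and SLC1A4, but the neutrophil sum was lowest on before 4. The lists did not run as one, since FCGR3A of the neutrophil list and MSR1 of the monocyte list were lowest on after 3, at 7.72 and 4.04 (log2). The 6 cytotoxic and natural killer cell markers, all measured, summed to 4880, 2212 and 3775 after and to 4093, 3562 and 2175 before. That sum was lowest on after 2 and before 6, the pair lowest in 43 of 91 SLC genes, and 4 of the 6 markers were lowest on it, while GZMB was highest on before 6. The 3 measured of 11 red cell markers summed to between 5944 and 6519 after and between 5141 and 5955 before, but they did not move together. HBB, which gave most of the sum, was highest on after 2 and before 6. ALAS2, the first enzyme of haem synthesis in red cell precursors, was at 9.06, 7.56 and 8.09 after and 8.81, 8.05 and 7.46 before. ALAS2 and GYPC were lowest on the after 2 and before 6 arrays, as was SLC25A38, but so were 36.9% of all genes. The sums of the 6 T cell markers ran from 9719 to 13336 after and from 9694 to 15194 before, of 3 of 6 B cell markers from 4483 to 5384 and from 4787 to 5574, of 2 of 7 platelet markers from 7583 to 7855 and from 7723 to 10324, and of 2 of 7 eosinophil and basophil markers from 470 to 694 and from 685 to 1006. None of the 34 markers passed an adjusted p under 0.05 in limma, and 1, MSR1, had an unadjusted p under 0.05 (0.494% of all probe sets did). MSR1 and GZMB were the markers with non-overlapping groups, both lower after cold, with changes of -0.66 ± 0.28 (SE) and -0.59 ± 0.27. Over all probe sets 2.31% were lower in this way. Of the measured monocyte markers 3 of 4 had a lower mean after cold, and of the cytotoxic and natural killer cell markers 2 of 6. The part of these cells in the SLC values was not tested, and fewer cells of a type and less RNA per cell cannot be told apart in such samples.

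In 4 of the 19 SLC genes with more than 1 probe set, the probe sets differed in the sign of the change. SLC25A6 is the clearest case. Its chosen probe set differed by 0.10 ± 0.28 (SE), and the other 2, which were much dimmer, by -0.58 ± 0.56 and -0.40 ± 0.44. On after 2 and before 6 the dimmer probe sets were at their highest (9.23 and 9.10 for one, 9.66 and 9.65 for the other), while the chosen one had its lowest value, 12.68, on before 6. The other 3 genes with a split sign were SLC25A5, SLC25A33 and SLC38A2. In SLC39A6, by contrast, both probe sets ran alike, at -0.35 ± 0.40 and -0.47 ± 0.48, and in SLC35A5 all 3 were lower, at -0.43 ± 0.51, -0.47 ± 0.57 and -0.31 ± 0.31.

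Genes that work with the carriers did not pass the test either. Of 18 listed symbols of carrier import into mitochondria and relatives of SLC25, 12 were measured, and 0 passed in either direction with limma, at an adjusted or an unadjusted p under 0.05. Their median change was 0.02, with 7 higher. TIMM22, the channel that inserts SLC25 proteins into the inner membrane, differed by 0.22 ± 0.31 (SE), and VDAC1, the main pore of the outer membrane, by -0.48 ± 0.37. Of 13 listed ion pumps and chaperones that serve carriers of the plasma membrane, 4 were measured and 0 passed at either p. BSG, which brings SLC16A1 and SLC16A3 to the cell surface, differed by 0.22 ± 0.36 and FXYD5, a regulator of the sodium pump, by -0.04 ± 0.35. Of 17 listed genes of amino acid sensing and response, 11 were measured, 7 were higher with a median of 0.05, and 0 passed at either p. RPTOR, the subunit that recruits substrates to mTOR complex 1, differed by 0.34 ± 0.29, RRAGB by -0.17 ± 0.35, and ATF4, the transcription factor that induces SLC7A5 and SLC38A2, by -0.01 ± 0.24.

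A block for matched samples moved the count at an unadjusted p under 0.05. Each of the 6 possible matchings of after with before arrays was fitted, since the labels do not name the true one. The count of SLC genes was 4 for the matching 1-4, 2-6, 3-5, or 4.40%, where 9.15% of all probe sets passed. They were SLC15A4 and SLC35A2, higher after cold, and SLC30A6 and SLC35F5, lower. It was 2 for the matching 1-5, 2-6, 3-4, with SLC30A6 and SLC35A1 both lower, where 5.14% of all probe sets passed, and 0 for the other 4 matchings, where 0.188% to 0.548% of all probe sets passed. No SLC gene passed an adjusted p under 0.05 in any of them, and the smallest adjusted p in limma was 0.492. Other settings moved the count as well. It was 4 without the after 2 array (SLC25A51, SLC30A6, SLC35A1 and SLC35A5, all lower after cold), where 14.0% of all probe sets passed, 2 with array weights (SLC30A6 and SLC35A1), where 5.19% passed, and 3 without both the after 2 and before 6 arrays (SLC25A51, SLC35A1 and SLC35A5), where 9.67% passed. In these 3 settings the share of SLC genes was below that of all probe sets. Without the after 1 array the count was 1 (SLC30A6), or 1.10%, where 0.306% of all probe sets passed.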

How the data were processed

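The labels put 6 samples into after cold (arrays 1, 2 and 3) and before cold (arrays 4, 5 and 6). The authors deposited a linear-scale intensity for each probe set, and the submitters' processing notes name GCOS and RMA without versions. A genome build or filter is not given in the sources used here. Log2 of the intensities was used, with no further normalization, pseudocount or filter. The number of arrays limits the precision, and detection calls were not used here.

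Symbols came from the platform annotation, and all 91 SLC genes matched a gene of the RefSeq table of ARS-UCD2.0. All 12763 probe sets were fitted with limma 3.58.1 (R 4.3.3), moderated and two-sided, without a block. Changes are given with SE, and 95% intervals use the moderated variance. An exact permutation test of 3 against 3 arrays cannot go below 0.1. The fit was tested on simulated data, where it called none of the smallest changes put in and only some of the larger ones. Those smallest changes were larger than any seen in an SLC gene, so a count of 0 says little about changes of the size seen here. Noise was simulated for each probe set apart, without the differences between arrays that many probe sets share in these data. The first pass mark of that test was missed and then lowered, with the fit left as it was.

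The members, role groups and gene lists were chosen with earlier results of these data known. Named genes were those with non-overlapping groups, the largest positive and negative change of each role group and partner list, the widest ranges, probe sets of split sign, and 26 genes with known roles, of which 17 were measured here. Others were named after their values were seen, to fill out families: SLC11A2, SLC17A5, SLC1A4, SLC22A5, SLC25A17, SLC25A28, SLC29A2, SLC2A6, SLC30A5, SLC31A1, SLC31A2, SLC35A3, SLC35B2, SLC35C1, SLC37A2, SLC39A6, SLC44A2, SLC52A2, SLC7A6OS, SLC8B1 and ATF4. Single markers of the cell lists were also named after their values were seen. Alternatives were filters on dim probe sets, a variance trend, array weights, normalization by median centring, by quantiles or by cyclic loess, averaging the probe sets of a gene, another threshold, leaving out each array, and a block. Leaving out both after 2 and before 6 was chosen after seeing the data.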

Additional observations from a re-analysis of the deposited data

How the results depend on the processing

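No paired analysis was possible because the labels give the groups no shared replicate numbers, so each possible matching was fitted as a block. In every setting run with limma, 0 probe sets and 0 SLC genes passed an adjusted p of 0.05, or of 0.1 over all 6 arrays. The count of SLC genes at an unadjusted p under 0.05, 0 over all arrays, was 2 with array weights, 0 to 4 on leaving out each array (4 without after 2, 1 without after 1), 4 with the block 1-4, 2-6, 3-5, 2 with the block 1-5, 2-6, 3-4, and 3 without the after 2 and before 6 arrays. The corresponding shares of all probe sets were 5.19% with array weights, 14.0% without after 2, 0.306% without after 1 and 9.67% without both arrays. They were 9.15% with the block 1-4, 2-6, 3-5 and 5.14% with the block 1-5, 2-6, 3-4. The 3 SLC genes with non-overlapping groups were 2 when the probe sets of a gene were averaged, a setting for which the share over all genes is not given here. The median change was -0.013 to 0.19 for SLC25 and -0.0037 to 0.26 for the other SLC genes on leaving out each array, and that of SLC25 was -0.062 with array weights, which gave the after 1 array a weight of 0.0019 and the before 4 array one of 30.7, against 3.62 and 2.05 for the other before arrays. The cause was not tested. Fewer arrays were fitted where some were left out.

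Of 43 named SLC genes, 18 kept the sign of their change under all alternatives that covered them, among them SLC15A4, SLC35E2B, SLC25A44, SLC30A6 and SLC35A1. The probe set of SLC30A6 was among the dimmest 25%, so the filters on dim probe sets did not cover this gene. In SLC15A4, SLC35E2B and SLC25A44 the groups do not overlap, so leaving out an array could not turn the sign. A block or a variance trend leaves the change as it was, and a filter on dim probe sets does so for those it keeps. These settings could therefore turn no sign. None of the opposite signs had an adjusted p under 0.05. On leaving out each array, the changes with both signs ran from -0.30 to 0.46 for SLC11A1, -0.14 to 0.51 for SLC12A2, -0.61 to 0.081 for SLC16A1, -0.055 to 0.41 for SLC1A5, -0.25 to 0.48 for SLC25A1, -0.051 to 0.42 for SLC25A11, -0.15 to 0.075 for SLC25A12, -0.13 to 0.57 for SLC25A29, -0.19 to 0.050 for SLC25A3, -0.066 to 0.14 for SLC25A33, -0.096 to 0.12 for SLC25A37 and -0.11 to 0.13 for SLC25A5. They ran from -0.92 to 0.028 for SLC25A51, -0.0041 to 0.28 for SLC25A6, -0.16 to 0.34 for SLC29A1, -0.023 to 0.34 for SLC2A1, -0.43 to 0.048 for SLC38A2, -0.039 to 0.60 for SLC3A2, -0.40 to 0.26 for SLC46A2, -0.37 to 0.27 for SLC4A1AP, -0.088 to 0.58 for SLC66A2 and -0.44 to 0.021 for SLC66A3. With array weights the sign turned in SLC16A1 (0.13), SLC25A1 (-0.12), SLC25A11 (-0.096), SLC25A26 (-0.10), SLC25A33 (-0.0066), SLC25A5 (-0.28), SLC25A6 (-0.24), SLC2A1 (-0.095), SLC35A5 (0.058), SLC38A5 (-0.045), SLC46A2 (0.28), SLC4A1AP (0.046) and SLC66A3 (0.092). SLC25A12 was at 0.022 with median centring, 0.024 with cyclic loess and 0.040 with quantile normalization. Averaging probe sets gave -0.067 for SLC25A33, -0.052 for SLC25A5 and -0.29 for SLC25A6. Without both the after 2 and before 6 arrays SLC25A37 was at -0.0035, SLC25A5 at -0.075 and SLC46A2 at 0.10. No measure of background was used, so what dim signal limits was not tested.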
